A study of Bos taurus with 6 samples.

Results

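Genes of the cell cycle and of DNA replication were followed in day-7 bovine blastocysts. Of 60 genes taken by symbol, 51 had a probe set under that symbol in the platform annotation, out of 9155 genes with a symbol and 24016 probe sets tested. CDK6, CDC25A, CDC25B, MCM2, TOP2A, MKI67, TTK, CENPE and KIF11 had no probe set under their symbol and are not described. The 51 genes had 67 probe sets, and each gene was read from its probe set with the highest mean. CDK1 and CKS1B had 1 probe set each.

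The study asked how the oviduct of a superovulated heifer affects the embryo, using the Affymetrix GeneChip Bovine Genome Array with 3 arrays per group. All embryos came from Simmental heifers that were synchronized, superovulated and artificially inseminated, 18 in all. In the superovulated group the embryos stayed in such a heifer until day 7. In the synchronized group embryos were flushed from 9 of the heifers on day 2 at the 2-cell stage, moved by endoscope into recipients that had been synchronized without stimulation, and collected on day 7. The embryos of both groups thus had superovulated mothers, and only the synchronized group was flushed and transferred, so handling and oviduct cannot be told apart. The labels say neither how many blastocysts were pooled for an array nor whether the arrays of a group stem from different animals, so p-values measure a spread between arrays that may be technical.

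Cells copy their DNA once per cycle and then divide it. Origins are licensed when the ORC complex, CDC6 and CDT1 load the MCM helicase, geminin (GMNN) blocks a second loading, and the polymerases and the PCNA clamp then copy the strands. Cyclins bound to their kinases drive each step, CDK1 with cyclin B starts mitosis, and the BUB and MAD2 proteins hold chromosome separation until the kinetochores are attached. Early embryos divide rapidly, first on transcripts stored by the oocyte and later on their own.

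Values are log2 signals from GCRMA, a method that subtracts background and summarises the probes of a set. Array medians lay between 2.75 and 2.8, so a signal below log2 4 was treated as near background, where GCRMA compresses differences. Probe sets above log2 4 numbered 1457, 1578 and 1894 on the superovulated arrays, in the order 1 to 3, and 973, 1850 and 1184 on the synchronized arrays. The 3' probe set of the GAPDH control exceeded the 5' one by 6.04, 6.18 and 6.11 in the superovulated group and by 4.57, 5.75 and 5.59 in the synchronized group, without overlap. The 5' set was near background on every array, at 2.60 to 3.03, so this gap mainly follows the 3' signal. The 16 hybridization control probe sets averaged 12.27, 12.31 and 12.30, then 12.82, 12.55 and 13.26, also without overlap. Of 12 blastocyst markers 7 were measured: KRT18 exceeded log2 4 on all superovulated arrays and on synchronized array 3, ATP1B1 on superovulated array 3 and synchronized arrays 2 and 3, and KRT8, SOX2, POU5F1, TEAD4 and CDH1 on no array. Blood markers (8 of 10 measured) and oviduct and uterus markers (7 of 8) were below log2 4 on every array. In RNA from whole embryos, fewer cells of a type and less RNA per cell cannot be told apart.

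Most of the 51 genes were near background. In 35 of them no array exceeded log2 4, with values from 2.29 to 3.92, and 33 of these 35 differed between the groups by less than 0.2. The 35 included all the measured cyclins E, CDK2, CDK4, CDC6, CDT1, ORC1, ORC6, MCM3, MCM4 and MCM5, and also AURKB, PLK1, PLK4, CDC20 and CENPA, genes that dividing cells use. A value near background here is a limit of these probe sets and arrays and does not show that the transcript was absent. Only 16 genes exceeded log2 4 on at least 1 array, and 8 had a mean above it: CKS1B, CKS2, GMNN, PCNA, AURKA, BUB1B, BUB3 and CENPF. That is 15.7% of the 51, against 10.1% of all genes with 1 probe set each.

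**Figure D1:**
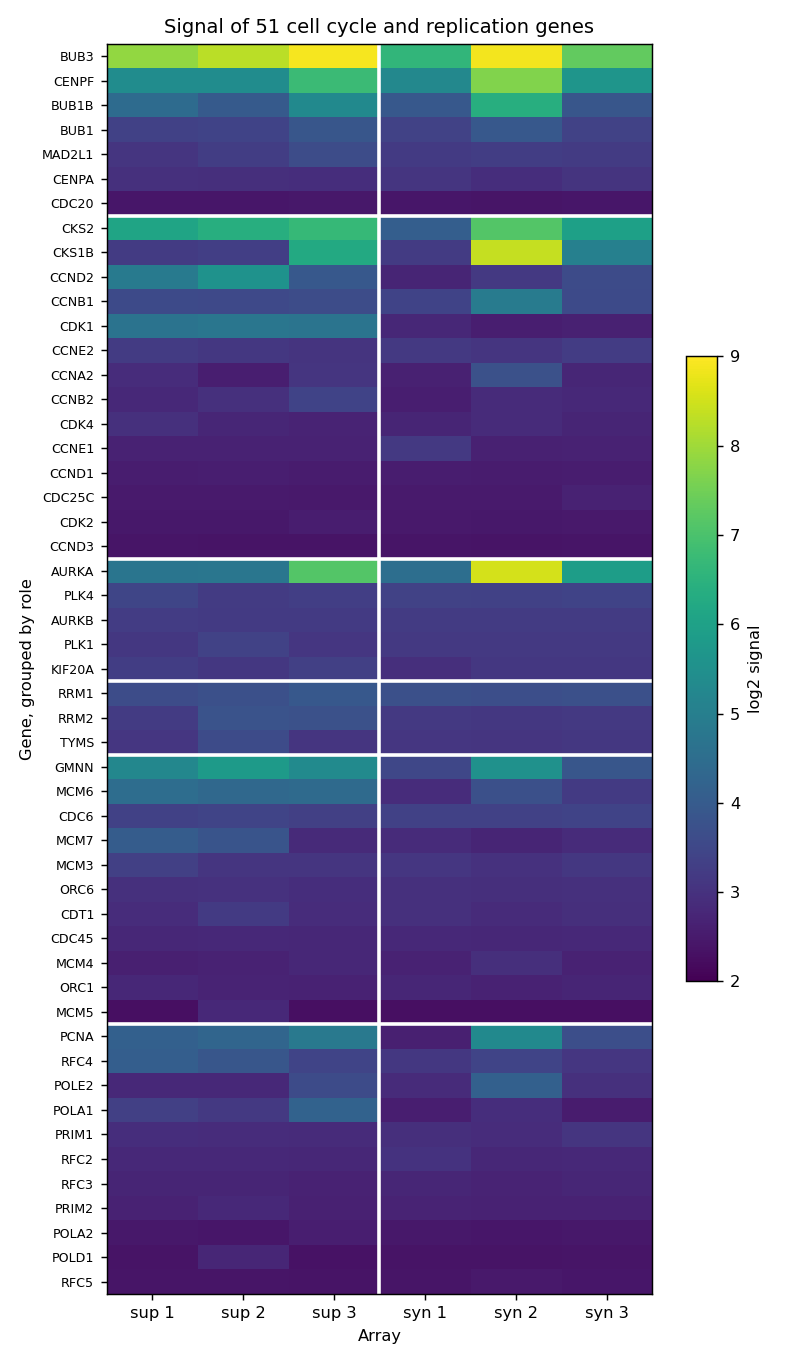
Heat map of the log2 signal of the 51 genes (rows, grouped by role and ordered by mean) on the 3 superovulated (sup) and 3 synchronized (syn) arrays (columns); white lines separate roles and groups. BUB3, with 6.61 to 8.90, is bright on every array, CDK1 only on the superovulated arrays, and AURKA and CKS1B are brightest on synchronized array 2.

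Between the groups 1 of the 51 genes changed, CDK1, which was higher in the superovulated group. Calls were made with limma over all probe sets at a Benjamini-Hochberg adjusted p below 0.05. Over all probe sets 0.716% were called in either direction and 0.695% as higher. Among all genes, each with its brightest probe set as for the 51, 1.32% were called, against 1.96% of the 51, which is this 1 gene. At a looser threshold, which asked for a change of 2-fold or more and an adjusted p under 0.3, CDK1 and MCM6 passed, 2 of 51 (3.92%), against 1.9% of all probe sets and 3.28% of all genes. Without adjustment 6 of 51 genes had p below 0.05 (11.8%), against 10% of all genes with 1 probe set each. The median difference, superovulated minus synchronized, was 0.01 over the 51 genes and -0.02 over all probe sets, with 29 genes above 0 and 21 below. The groups did not overlap in 6 of 51 genes (11.8%), against 13.3% of all probe sets and 16.9% of all genes. In 5 of these 6 (9.8% of the 51) the superovulated group was higher, which held for 5.42% of all probe sets and 9.06% of all genes.

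Among the cyclins and their kinases, CDK1 stood alone. In array order 1 to 3, its signal was 4.67, 4.76 and 4.68 in superovulated and 2.79, 2.58 and 2.65 in synchronized embryos; further genes are given in the same order. The 3 values of each group lay within 0.21 of one another and the groups were far apart. CDK1 rose by 2.03 (95% interval 1.87 to 2.19, limma adjusted p = 0.00469). Because the synchronized values were near background, its true size is uncertain. The compression of signals there may also make the interval too narrow and the p-value too small. The limma adjusted p was 0.0263 after quantile normalization of the deposited values and 0.034 with a variance trend. The call held with each array left out in turn, at adjusted p between 0.00901 and 0.0303, and was lost without both superovulated array 3 and synchronized array 2 (difference 2.00, adjusted p = 0.108). Other signals also separated the groups without overlap: both sets of control values given above, of which the hybridization controls were lower in the superovulated group, and KRT18, a trophectoderm keratin, at 7.96, 8.11 and 7.74, then 3.55, 3.68 and 4.90. The summed signal of the other 6 measured blastocyst markers overlapped, at 18.69, 19.06 and 20.47, then 17.77, 19.42 and 18.53. Of these, POU5F1 did not overlap, at 3.54, 3.43 and 3.24, then 2.65, 2.73 and 2.40. It was near background and differed by 0.81 (limma adjusted p = 0.0886). TEAD4 differed by 0.38, ATP1B1 by -0.32, and KRT8, SOX2 and CDH1 by -0.01 each. The part of the control signals, of KRT18 or of POU5F1 in the rise of CDK1 was not tested.

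The probe sets of the mitotic cyclins, the partners of CDK1, were near background on most arrays and none was called. CCNB1 (cyclin B1) read 3.57, 3.55 and 3.63 in the superovulated group and 3.42, 4.90 and 3.58 in the synchronized group. Only synchronized array 2 stood out, and the difference of -0.38 did not pass (adjusted p = 0.652). CCNA2 (cyclin A2) had its highest value, 3.73, on the same array, against 2.60 to 3.09 on the others. CCNB2 (cyclin B2) differed by 0.30, with its highest value, 3.40, on superovulated array 3. Whether these differences differ from that of CDK1 was not tested. CCNB1, CCNA2 and CCNB2 were chosen for description after their values were seen.

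CCND2, a D-type cyclin that acts in G1 with CDK4 and CDK6, read 4.85, 5.56 and 3.93, then 2.73, 3.16 and 3.59. The groups did not overlap, but superovulated array 3 came within 0.34 of synchronized array 3. The difference was 1.62 (95% interval 0.39 to 2.85) and did not pass (adjusted p = 0.506). CCND1 and CCND3, the other D-type cyclins, stayed between 2.37 and 2.58 on all arrays.

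CKS1B and CKS2 encode the small proteins that bind CDK complexes and help them reach their substrates. CKS1B read 3.22, 3.30 and 6.24 in superovulated embryos and 3.22, 8.38 and 5.05 in synchronized ones. Superovulated array 3 and synchronized arrays 2 and 3 were high and the other 3 arrays were near background, so the superovulated values lay within the synchronized range. The difference of -1.30 had a 95% interval from -5.48 to 2.89 (adjusted p = 0.676) and turned to 0.12 without synchronized array 2. CKS2 read 6.08, 6.38 and 6.70, then 4.09, 7.12 and 5.99. Here synchronized array 1 was the low value and synchronized array 2 again the highest, and the difference of 0.65 did not pass (adjusted p = 0.674) and turned to -0.17 without synchronized array 1. Across these 14 genes 7 differences were above 0 and 7 below, with a median of -0.005.

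Among the 11 origin licensing genes none was called, and the largest differences were in geminin and in subunits of the MCM helicase. MCM6 read 4.50, 4.36 and 4.41 in the superovulated group and 2.89, 3.72 and 3.18 in the synchronized group. The groups did not overlap, and the difference was 1.16 (95% interval 0.59 to 1.73, adjusted p = 0.171). Its second probe set read 2.48 to 2.58 on all arrays and thus gave no usable signal. The looser call of MCM6 was lost without synchronized array 1, where the difference fell under 2-fold (0.97, adjusted p = 0.245). It was also lost without any 1 of superovulated arrays 1 to 3 or synchronized array 3, where the difference stayed between 1.12 and 1.19 and the adjusted p was 0.449 to 0.516. MCM6 was called at the stricter threshold without synchronized array 2, where the difference was 1.39 (adjusted p = 0.0486), and with arrays weighted by quality (1.37, adjusted p = 0.0184).

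MCM7, a subunit of the same helicase, was higher on superovulated arrays 1 and 2 alone. It read 4.03, 3.83 and 2.84, then 2.85, 2.72 and 2.86, so superovulated array 3 lay within the synchronized range, and the difference of 0.76 did not pass (adjusted p = 0.636). GMNN read 5.24, 5.82 and 5.35 in the superovulated group and 3.48, 5.53 and 3.86 in the synchronized group. Synchronized array 2 lay inside the superovulated range while arrays 1 and 3 were below log2 4. The difference of 1.18 had a 95% interval from -0.33 to 2.69 (adjusted p = 0.636). The other 8 licensing genes differed by -0.07 to 0.18, and the median over the 11 was 0.06.

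**Figure D2:**
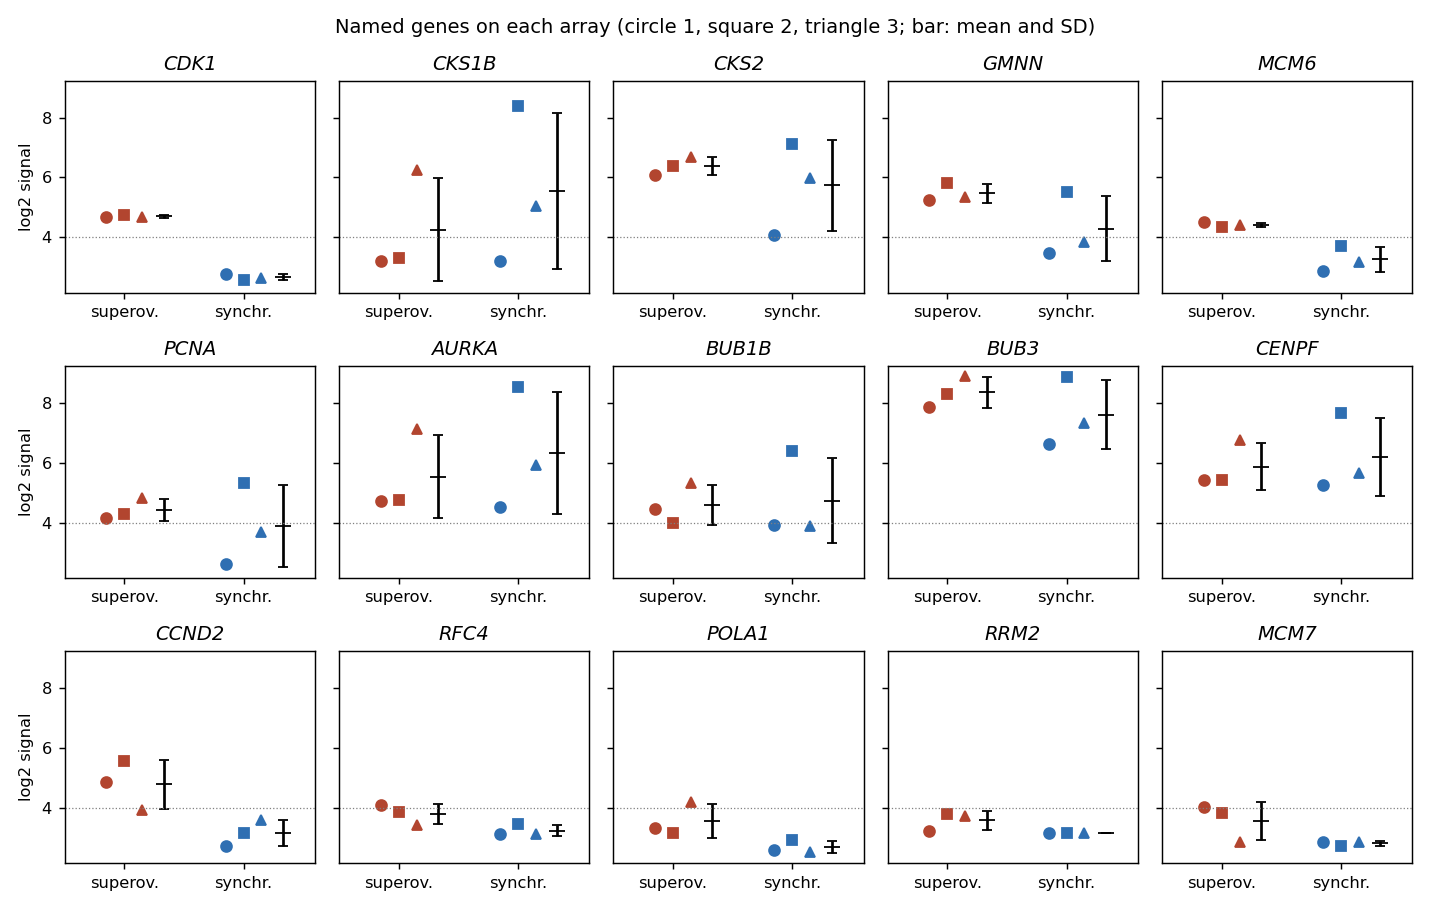
Log2 signal of the 15 named genes on each array, superovulated in red and synchronized in blue, with circles, squares and triangles for arrays 1, 2 and 3 and black bars for mean and SD (n = 3). CDK1 separates the groups with little spread, whereas in CKS1B, AURKA and CENPF the square of the synchronized group (8.38, 8.54 and 7.67) is the highest point of all; the dotted line marks log2 4.

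Among the 11 replication fork genes none was called either. POLA1, the catalytic subunit of polymerase alpha, which starts each new strand, read 3.32, 3.15 and 4.19, then 2.60, 2.92 and 2.53. The groups did not overlap, the difference was 0.87 (95% interval 0.07 to 1.67) and the adjusted p was 0.636. RFC4, a subunit of the loader that places PCNA on DNA, read 4.10, 3.86 and 3.43, then 3.13, 3.44 and 3.12. Superovulated array 3 and synchronized array 2 were level, and the difference of 0.57 did not pass (adjusted p = 0.636).

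PCNA, the sliding clamp, read 4.15, 4.28 and 4.82, then 2.61, 5.33 and 3.69. The synchronized values spanned the superovulated ones on both sides, and the difference was 0.54 (95% interval -1.35 to 2.43, adjusted p = 0.690), or -0.09 without synchronized array 1. POLE2, an accessory subunit of polymerase epsilon chosen after its values were seen, exceeded log2 4 on synchronized array 2 alone (4.15) and was next highest on superovulated array 3 (3.59). RFC5, another clamp loader subunit, was the only one of the 51 genes with every superovulated value below every synchronized one, but its values of 2.38 to 2.47 were at background. Of the 3 genes of nucleotide supply, RRM2, the small subunit of ribonucleotide reductase, read 3.22, 3.79 and 3.73, then 3.16, 3.14 and 3.16. These values did not overlap but were near background, and the difference of 0.43 did not pass (adjusted p = 0.636), though it did without superovulated array 1 (0.61, adjusted p = 0.0282).

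The mitotic genes that gave a clear signal varied more between arrays of the same group than between the groups. AURKA, the kinase of spindle poles, read 4.71, 4.74 and 7.12 in superovulated embryos and 4.52, 8.54 and 5.91 in synchronized ones. Array 3 of the first group and arrays 2 and 3 of the second were the high ones, and the remaining 3 arrays were alike. The means were 5.52 ± 1.38 and 6.32 ± 2.04 (SD, n = 3), a difference of -0.80 (95% interval -4.09 to 2.49, adjusted p = 0.731). The second AURKA probe set was dim and had its highest value on the same array, 3.86 on synchronized array 2 against 2.89 to 3.05 on the others. AURKB, the kinase of the chromosomal passenger complex, read 3.18 to 3.25 on all arrays.

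CENPF, a large kinetochore protein, read 5.41, 5.41 and 6.76, then 5.26, 7.67 and 5.65. The same 3 arrays as in AURKA were the highest, in the same order, and the difference of -0.33 did not pass (adjusted p = 0.811). BUB1B, the checkpoint kinase-like protein BUBR1, read 4.46, 3.99 and 5.32, then 3.93, 6.38 and 3.88, a difference of -0.14 (adjusted p = 0.915). Without synchronized array 2 the differences of AURKA, CENPF and BUB1B turned to 0.31, 0.41 and 0.69, and that of BUB1B turned to 0.16 without superovulated array 2 and to 0.32 without both superovulated array 3 and synchronized array 2. BUB3, which recruits BUB1 and BUB1B to kinetochores, read 7.87, 8.28 and 8.90, then 6.61, 8.87 and 7.33. Its highest values on superovulated array 3 and synchronized array 2 were level, and the difference of 0.75 did not pass (adjusted p = 0.636). Over the 7 measured checkpoint and kinetochore genes the differences ran from -0.33 to 0.75, and over the 5 measured mitotic kinase and motor genes from -0.80 to 0.16, with 0 calls in both (0 and 0 at the looser call).

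**Figure D3:**
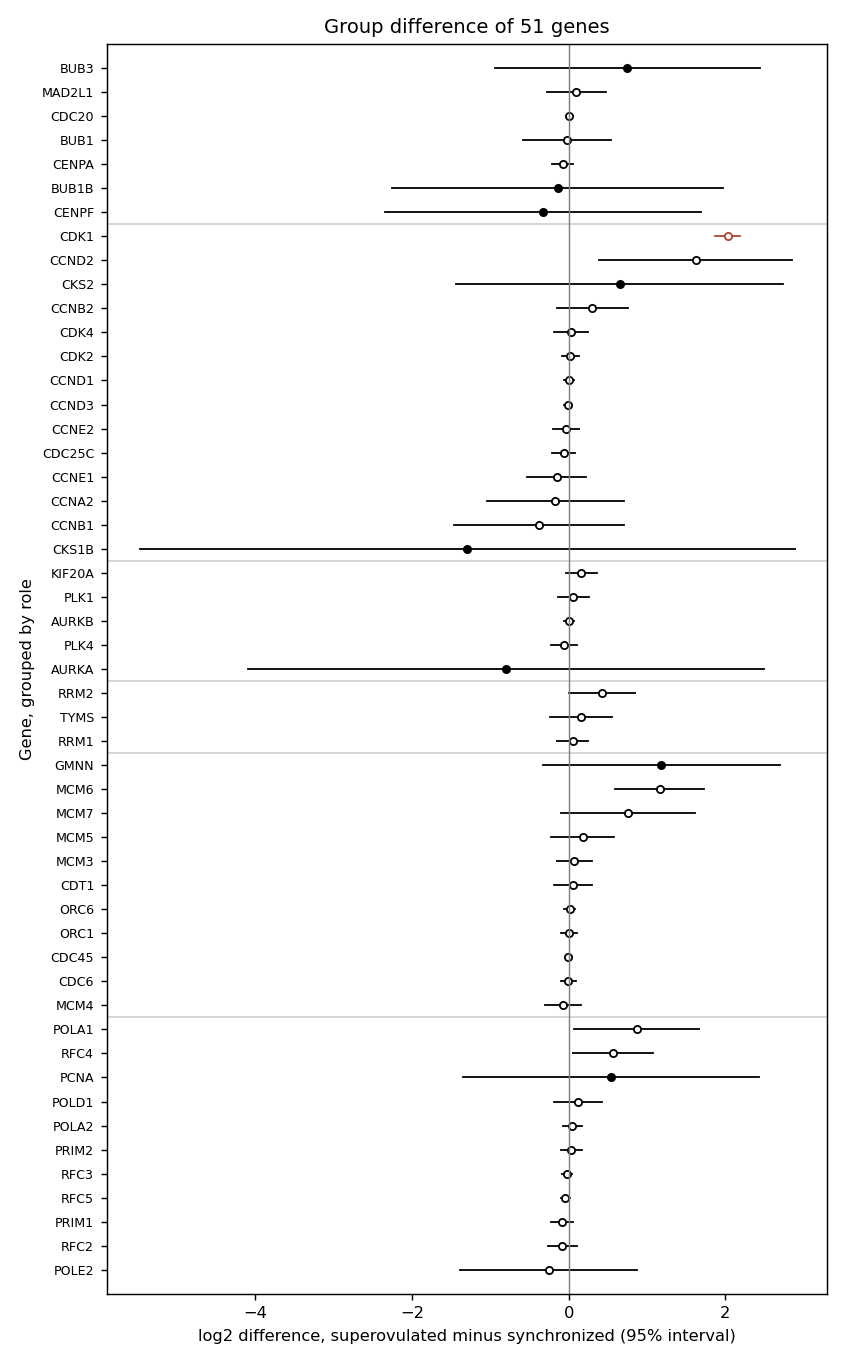
Difference in log2 signal, superovulated minus synchronized, with its 95% interval from limma for the 51 genes, grouped by role and split by grey lines. Filled points have a mean above log2 4, open points do not, and red marks the called gene, CDK1; the intervals of CKS1B (-5.48 to 2.89) and AURKA (-4.09 to 2.49) are the widest.

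Superovulated array 3 and synchronized array 2 were thus each the highest of their group in most of the bright genes. This held for 7 of the 8 genes with a mean above log2 4, all but GMNN, against 39.1% of all 1406 probe sets with such a mean. Over the 51 genes it held for 15 (29.4%), against 14% of all genes with 1 probe set each. In 6 of the 8, all but GMNN and BUB3, synchronized array 2 was the highest of all arrays and superovulated array 3 the next, against 23.1% of the bright probe sets. The spread was larger among the synchronized arrays in 8 of 8, against 77.4% of the bright probe sets. This order was noticed in the data and was not tested. The mean that picked the 8 genes includes both of these arrays, so a gene high on them could pass log2 4 through them. CKS1B and PCNA did so, as their values on the other arrays average below log2 4. The counts among the 8 are thus partly set by the filter. The same filter was applied to the 1406 probe sets.

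The size of these differences varied by gene. Superovulated array 3 exceeded the mean of arrays 1 and 2 by 2.98 in CKS1B, 2.40 in AURKA, 1.35 in CENPF and 1.10 in BUB1B, but by 0.47 in CKS2 and 0.61 in PCNA. Synchronized array 2 exceeded the mean of arrays 1 and 3 by 4.25 in CKS1B and 3.33 in AURKA, and by 1.86 to 2.48 in the other 6. CDK1 did not share this order: its 3 superovulated values lay between 4.67 and 4.76, and synchronized array 2 held its lowest value. Each group's array thus differed by more in CKS1B and AURKA than the groups differed in CDK1.

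Other signals moved with the same arrays. Superovulated array 3 and synchronized array 2 also had the most probe sets above log2 4 of their groups. The 10 cumulus and granulosa markers, all measured, summed to 31.14, 31.35 and 38.28 in the superovulated group and to 33.46, 42.01 and 35.03 in the synchronized group. Of this list, and chosen after their values were seen, TNFAIP6, a protein of the cumulus matrix, read 3.05, 2.99 and 7.38, then 4.25, 8.47 and 5.96, and the inhibin subunit INHA read 4.79, 4.85 and 6.64, then 4.85, 6.79 and 4.87. PTX3, another cumulus matrix protein, read 2.99, 2.94 and 3.87, then 3.01, 5.21 and 3.52. The hyaluronan synthase HAS2 of the same matrix had the lowest value of each group on these arrays, at 3.78, 4.05 and 3.65, then 3.66, 3.44 and 3.58, and the receptor LHCGR was highest on synchronized array 1 (3.69). Without TNFAIP6 the list summed to 28.09, 28.36 and 30.90, then 29.21, 33.54 and 29.07, and without TNFAIP6, INHA and PTX3 to 20.31 to 20.57 and 20.68 to 21.54. The granulosa receptor FSHR (2.67 to 2.75) and AMH (2.36 to 2.43) were at background on all arrays. The oocyte transcript KPNA7, an importin chosen likewise, gave 5.94, 5.98 and 7.78, then 4.04, 9.02 and 6.11. ATP1B1, a blastocyst marker also picked with its values known, gave 3.93, 3.91 and 5.40, then 3.83, 5.60 and 4.78. KRT18, KRT8, SOX2, POU5F1, TEAD4 and CDH1 did not peak in both groups on superovulated array 3 and synchronized array 2. The blastocyst sum without KRT18 was highest of each group on those arrays, at 20.47 and 19.42. The part of any of these in the order of the cell cycle genes was not tested. The summed oviduct and uterus markers stayed between 17.45 and 18.60, at 17.89, 17.45 and 18.19, then 18.47, 18.60 and 17.78. They were thus also highest of each group on superovulated array 3 and synchronized array 2. The summed blood markers stayed between 21.31 and 22.31 and were lowest of each group on those arrays.

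**Figure D4:**
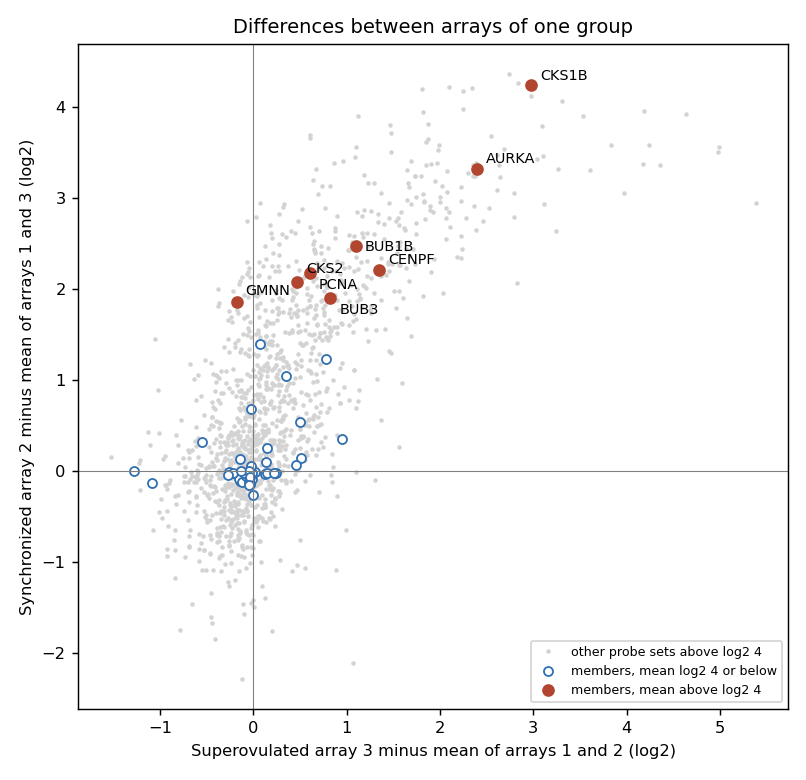
For each gene, superovulated array 3 minus the mean of superovulated arrays 1 and 2 (horizontal, log2) against synchronized array 2 minus the mean of synchronized arrays 1 and 3 (vertical, log2). The 8 members with a mean above log2 4 (red) lie above 1.8 on the vertical axis and all but GMNN lie right of 0, with CKS1B (2.98 and 4.25) and AURKA (2.40 and 3.33) farthest out; grey points are the other probe sets above log2 4.

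The differences also depended on how the arrays were scaled, since bright probe sets were shifted as a body by a median of 0.59 towards the superovulated group. Centring each array on its bright probe sets adds a constant to the array, so every difference moved by the same amount, also in genes near background. It moved the median difference over all probe sets from -0.02 to -0.65 and that over the 51 genes from 0.01 to -0.61, and it left 8 of the 51 genes above 0. CDK1 was still called, at 1.41 (adjusted p = 0.00578). The difference of MCM6 became 0.54 and that of GMNN 0.56, neither called, and PCNA, RFC4 and RRM2 turned to -0.08, -0.06 and -0.20. Quantile normalization of the deposited values turned BUB3 to -0.21 and CKS2 to -0.04. Whether the deposited arrays had already been normalized together is not given. After the centring on bright probe sets, CKS1B (-1.92, adjusted p = 1.32e-05) and AURKA (-1.42, adjusted p = 0.00506) were called as lower, although their groups overlapped. Centred AURKA values were 4.60, 4.43 and 6.61, then 5.28, 8.33 and 6.29. In that limma fit the prior degrees of freedom were infinite, so each probe set received the same SD of 0.44, which is below the spread of both genes. The call of CDK1 after centring came from the same fit and the same SD. Its centred values were 4.56, 4.45 and 4.17, then 3.55, 2.37 and 3.03, without overlap but more spread in the synchronized group than before centring. Of the 8 bright genes 7 still had their highest values on superovulated array 3 and synchronized array 2 after this centring, against 24.5% of bright probe sets.

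Other genes of the same pathway were read from a list of 115 inhibitors, regulators and further subunits, of which 75 were measured. By limma 0 of the 75 were called, 4 had an unadjusted p below 0.05 (5.33%, against 10% of all genes) and 2 passed the looser call (2.67%, against 3.28%). The median difference was -0.03. The groups did not overlap in 11 of the 75 (14.7%, against 16.9% of all genes), 4 with the superovulated group higher and 7 with it lower. With array weights 0 were called as well. UBE2C, the ubiquitin-conjugating enzyme of the anaphase-promoting complex, read 4.23, 5.11 and 3.84, then 2.69, 2.53 and 3.10, a difference of 1.62 (adjusted p = 0.280). SPC24, of the NDC80 kinetochore complex, read 4.80, 5.41 and 4.68, then 3.90, 3.99 and 3.98, a difference of 1.01 (adjusted p = 0.202). CHEK1, the checkpoint kinase that restrains CDK activation when DNA is damaged, read 5.24, 5.73 and 5.83, then 3.96, 5.09 and 4.43, a difference of 1.11 (adjusted p = 0.532). These are 3 of the 4 genes without overlap and a higher superovulated group. None of them was called, and UBE2C and SPC24 were the 2 genes that passed the looser call. The histone-fold subunit gene POLE3 (-0.35) and the separase gene ESPL1 (-0.16) differed in the other direction, near background and not called; POLE3 was called without synchronized array 1 (-0.49, adjusted p = 0.0448). In 21 of the 75 genes (28%) superovulated array 3 and synchronized array 2 were each the highest of their group.

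Of the 16 further probe sets, 1 for each of 16 genes, none exceeded log2 4 on any array, and they ran from 2.30 to 3.86. The values above therefore rest on 1 probe set per gene, also for AURKA, BUB3, CENPF, MCM6 and POLA1, which had a second one.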

How the data were processed

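The table held 24128 probe sets on 6 arrays. Per the submitters' processing notes the authors made the deposited log2 values with GCRMA; version and joint normalization are not given in the sources used here. After 112 control probe sets were set aside, 24016 were tested. Gene symbols came from GEO's platform annotation (13292 probe sets with 1 symbol, 86 with several, 10638 with none), and a check of gene identifiers against the ARS-UCD2.0 gene table changed 0 symbols. No coordinates or sequences were used.

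The comparison used R 4.3.3 and limma 3.58.1, with lmFit and eBayes, a two-sided test of the group term alone and Benjamini-Hochberg adjustment over all probe sets. The procedure was tested on simulated data. Precision is limited by 3 arrays per group. Members, roles, lists and settings were chosen with earlier results of these data known. Named with all array values were CDK1, CKS1B, genes called at either threshold, genes with a mean above log2 4, the next 5 by p, and of the other list the 5 with the smallest p; exceptions are marked. Alternatives covered scaling, a filter on dim probe sets, variance trend, array weights, probe set choice, a replicate block and arrays left out. The sum of a marker list adds the log2 signals of its measured genes.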

Additional observations from a re-analysis of the deposited data

How the results depend on the processing

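CDK1 kept its direction under every setting run in which it was tested, with differences from 1.41 to 2.09, but not always its call. Leaving out each array in turn gave 1 to 2 of the 51 genes called, 1 to 3 looser calls, a median difference over the 51 genes of 0 to 0.077, 0 to 1 calls in the list of 75 other genes, and 26 to 137 probe sets called over the whole table in place of 172. Quantile normalization of the deposited values gave 28 probe sets and 1 looser call, and a variance trend 50 probe sets. Centring on bright probe sets gave 647 probe sets, 3 genes, 4 looser calls, a median of -0.61 and 4 calls among the 75 (RPA2, LIG1, ZWINT and NUSAP1). Testing only probe sets with a mean above log2 4, which drops CDK1, gave 441 probe sets, 0 genes, 1 looser call (GMNN), a median of 0.20 and 1 call among the 75 (SPC24, adjusted p = 0.0334). Array weights gave 515 probe sets, 2 genes and 7 looser calls, and the mean of all probe sets of a gene 1 looser call. Without superovulated array 3 and synchronized array 2 together, 1 probe set and 0 genes were called. Some of these settings used fewer arrays or probe sets. The cause of these changes was not tested.

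Over bright probe sets the deviations of same-numbered arrays from their group means correlated at 0.60, -0.54 and -0.44. Those of superovulated array 3 and synchronized array 2 correlated at 0.74. Such correlations cannot show whether the replicate numbers mark a shared day or batch, which the labels do not state. With the number as a replicate block 0 probe sets and 0 of the 51 genes were called, with 1 looser call, CDK1 at 2.03 (adjusted p = 0.106).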
